A study of Mus musculus with 7 samples.

Results

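The 10 genes described here encode contractile proteins of heart muscle, namely the myosin heavy chains Myh6 and Myh7, the myosin light chains Myl2, Myl3, Myl4 and Myl7, cardiac actin Actc1, and the troponin subunits Tnnt2 and Tnni1, together with the atrial natriuretic peptide gene Nppa. All probe sets whose array annotation named 1 of these genes were taken, which gave 17 of the 22690 probe sets on the array. Of the 17, 15 were assigned to a single gene and 2 to Myh7 and Myh6 together. Gene expression was measured in 7 whole embryos of the FVB inbred mouse strain at embryonic day 10.5 (E10.5), with 1 Affymetrix 430A 2.0 array per embryo. Diabetes-exposed embryos (n = 5) came from 1 dam made diabetic with streptozotocin, a toxin of insulin-producing beta cells. Among them 2 had a neural tube defect (NTD) and 3 were labelled as having no NTD. Control embryos (n = 2) came from 1 untreated dam. The groups shared strain, age and tissue, so that diabetes, streptozotocin treatment of the dam and litter cannot be told apart, and the p-values below measure the spread between littermates.

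Heart muscle contracts when the myosin heads of the thick filament pull on the actin of the thin filament within the sarcomere. Each myosin heavy chain carries an essential and a regulatory light chain, and the troponin complex on the thin filament makes the interaction depend on calcium. In the mouse, Myh7 is the main heavy chain of the embryonic ventricle and Myh6 that of the atrium, Myl2 and Myl3 mark the ventricle and Myl4 and Myl7 the atrium of the formed heart, and Nppa encodes a hormone secreted by heart muscle cells. The heart is the first organ to function in the embryo, and malformations of the heart and great vessels are among the known complications of diabetic pregnancy.

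Signals are linear values scaled by the authors, so that every array had the same trimmed mean of 500.2. The median signal of an array lay between 205.7 and 218.3. A probe set was tested when its signal reached the array's 40th percentile (131.5 to 146.4) on at least 2 of the 7 arrays, which 14554 probe sets did, and groups were compared on the log2 scale with limma. At an adjusted p below 0.05 (Benjamini-Hochberg), 25 of the 14554 were called between exposed and control embryos, 16 higher and 9 lower, and this count depended strongly on the processing. Of the 17 heart muscle probe sets 15 were tested, of which 14 reached the percentile on all 7 arrays, while 1448827_s_at passed through the 2 control embryos alone. The others were dim, with signals of 4.43 to 42 for a probe set of Myh6 (1417729_at) and 27.3 to 113 for a probe set of Myl4 (1457126_at). Nkx2-5, the transcription factor that marks heart muscle cells and their progenitors, had signals of 153 to 226. These lay above the 40th percentile of every array, but most were below the array medians, and detection calls were not used.

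None of the 15 tested heart muscle probe sets was called between exposed and control embryos, against a background of 0.172% of all tested probe sets. Their adjusted p-values ran from 0.126 to 0.967. The log2 fold change was above 0 for 12 of the 15, against 50.1% of all tested probe sets, and its median was 0.20 over the 15 and 0.00033 over all tested. Among the 3 below 0 was 1448827_s_at, which passed the filter through the 2 control embryos alone. Over the 13 tested probe sets of a single gene the median was 0.20 as well. The median was 0.12 when each of the 10 genes was counted once by its brightest probe set. At an unadjusted p below 0.05, 2 probe sets were higher and 0 were lower in exposed embryos, where 7.63% of all tested probe sets were higher and 8.52% lower. Both of these 2 are assigned to Myh7, 1 of them together with Myh6. In whole-embryo RNA, a different number of heart muscle cells and a different amount of RNA per cell cannot be told apart.

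**Figure D1:**
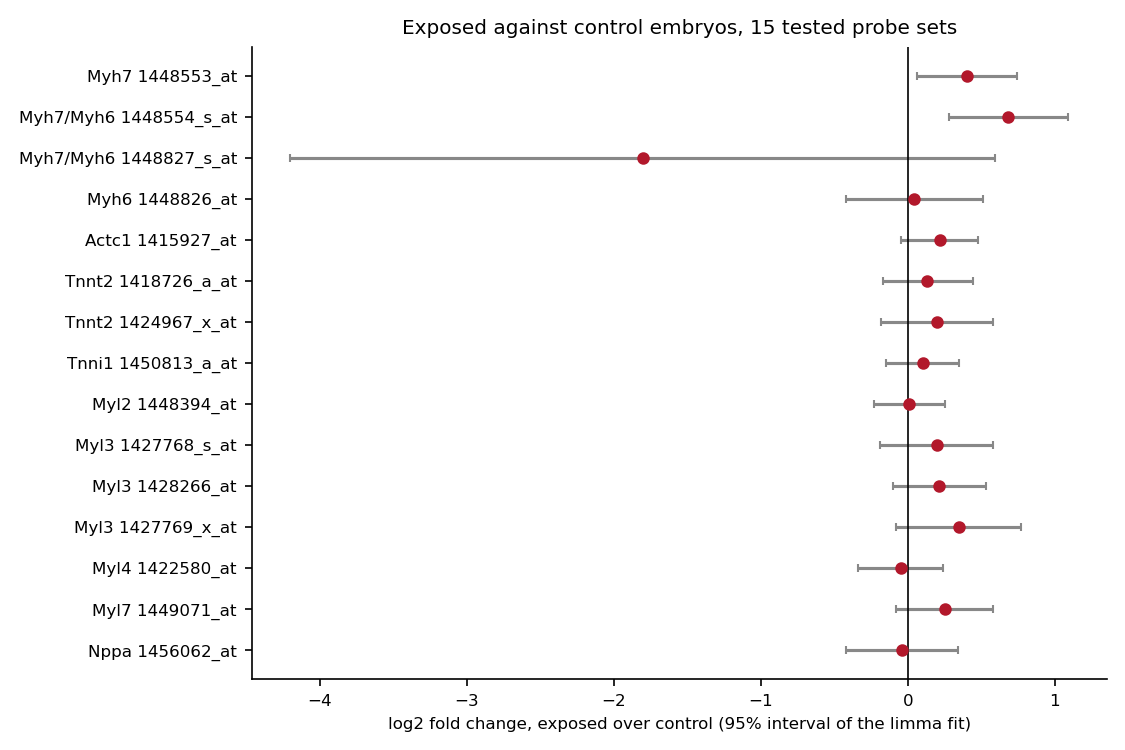
Each point is the log2 fold change of 1 tested probe set, exposed (n = 5) over control (n = 2), and each bar its 95% interval from the limma fit, with 0 marked by the vertical line. The intervals of Myh7 (1448553_at) and of 1448554_s_at, shared by Myh7 and Myh6, lie above 0, while those of the other 13 include 0.

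The myosin heavy chain of the embryonic ventricle, Myh7, had the largest positive difference among probe sets of a single gene. Its probe set 1448553_at gave signals of 1324 and 1343 in exposed embryos with NTD and of 1619, 1485 and 1092 in exposed embryos without NTD, against 1042 and 1024 in control embryos. All 5 exposed embryos thus lay above both controls, but the lowest of them only just. Exposed embryos averaged 1373 ± 197 and control embryos 1033 ± 12.3 (SD, n = 5 and 2), which is 1.33-fold. This gave a log2 fold change of 0.40 ± 0.15 (SE), with a 95% interval of 0.06 to 0.74. The unadjusted limma p was 0.0252 and the adjusted p 0.241, while the two-sided exact permutation test gave p = 0.095, where the smallest p that the 21 groupings of 5 and 2 embryos allow is 0.048.

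A second probe set, 1448554_s_at, is assigned to Myh7 and Myh6 together, so that transcripts of both genes can contribute to it. It gave 561 and 769 in exposed embryos with NTD and 847, 623 and 653 in exposed embryos without NTD, against 490 and 370.0 in control embryos. The groups did not overlap here either, with 561 in the lowest exposed embryo and 490 in the higher control. That gap was smaller than the one between the 2 control embryos. The means were 691 ± 115 in exposed and 430.0 ± 84.9 in control embryos (SD, n = 5 and 2), or 1.61-fold. The log2 fold change of 0.68 ± 0.18 (SE; 95% interval 0.28 to 1.09) was the largest positive one of the members and had the lowest adjusted p in limma, 0.126 (exact permutation p = 0.048). The 2 control embryos differed from each other by more than in most members, and the log2 fold change was 0.88 without control 1 and 0.48 without control 2. With Cyber-T, the regularized test named in the study's methods, and Benjamini-Hochberg adjustment, an alternative added after seeing the data, these 2 probe sets passed 0.05, with an adjusted p of 0.0415 for 1448553_at and 0.00887 for 1448554_s_at. That test called 8.96% of all tested probe sets. The methods' t-test, the other one named there, gave adjusted p-values of 0.165 and 0.416 for the same pair and called 0 of all tested probe sets.

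Myh6, the heavy chain of the atrium and later of the whole adult mouse heart, had a log2 fold change near 0. Its probe set 1448826_at gave 470 and 556 in exposed embryos with NTD and 310, 465 and 420 in exposed embryos without NTD, against 484 and 370 in control embryos. The exposed embryos fell on both sides of the controls. It was 0.04 ± 0.21 (SE), and its 95% interval of -0.42 to 0.51 still allows a change of the size fitted for Myh7. The dim probe set 1417729_at of the same gene had 25.4 and 24.2 in exposed embryos with NTD and 4.43, 20.6 and 17 in exposed embryos without NTD, against 28.3 and 42 in control embryos, all below the 20th percentile of their arrays, and no fold is drawn from them. The remaining probe set shared by Myh7 and Myh6, 1448827_s_at, was dim as well. It gave 135 and 23.6 in exposed embryos with NTD and 5.61, 114 and 49.8 in exposed embryos without NTD, against 134 and 145 in control embryos, with a log2 fold change of -1.80 and a 95% interval of -4.20 to 0.59. Without exposed embryo without NTD 1 this was -1.10, and it was -0.86 after 50 was added to each signal. As this probe set passed the filter only through the control embryos, where it was high, its sign is not interpreted by itself. The counts and medians over the tested heart muscle probe sets still include it.

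**Figure D2:**
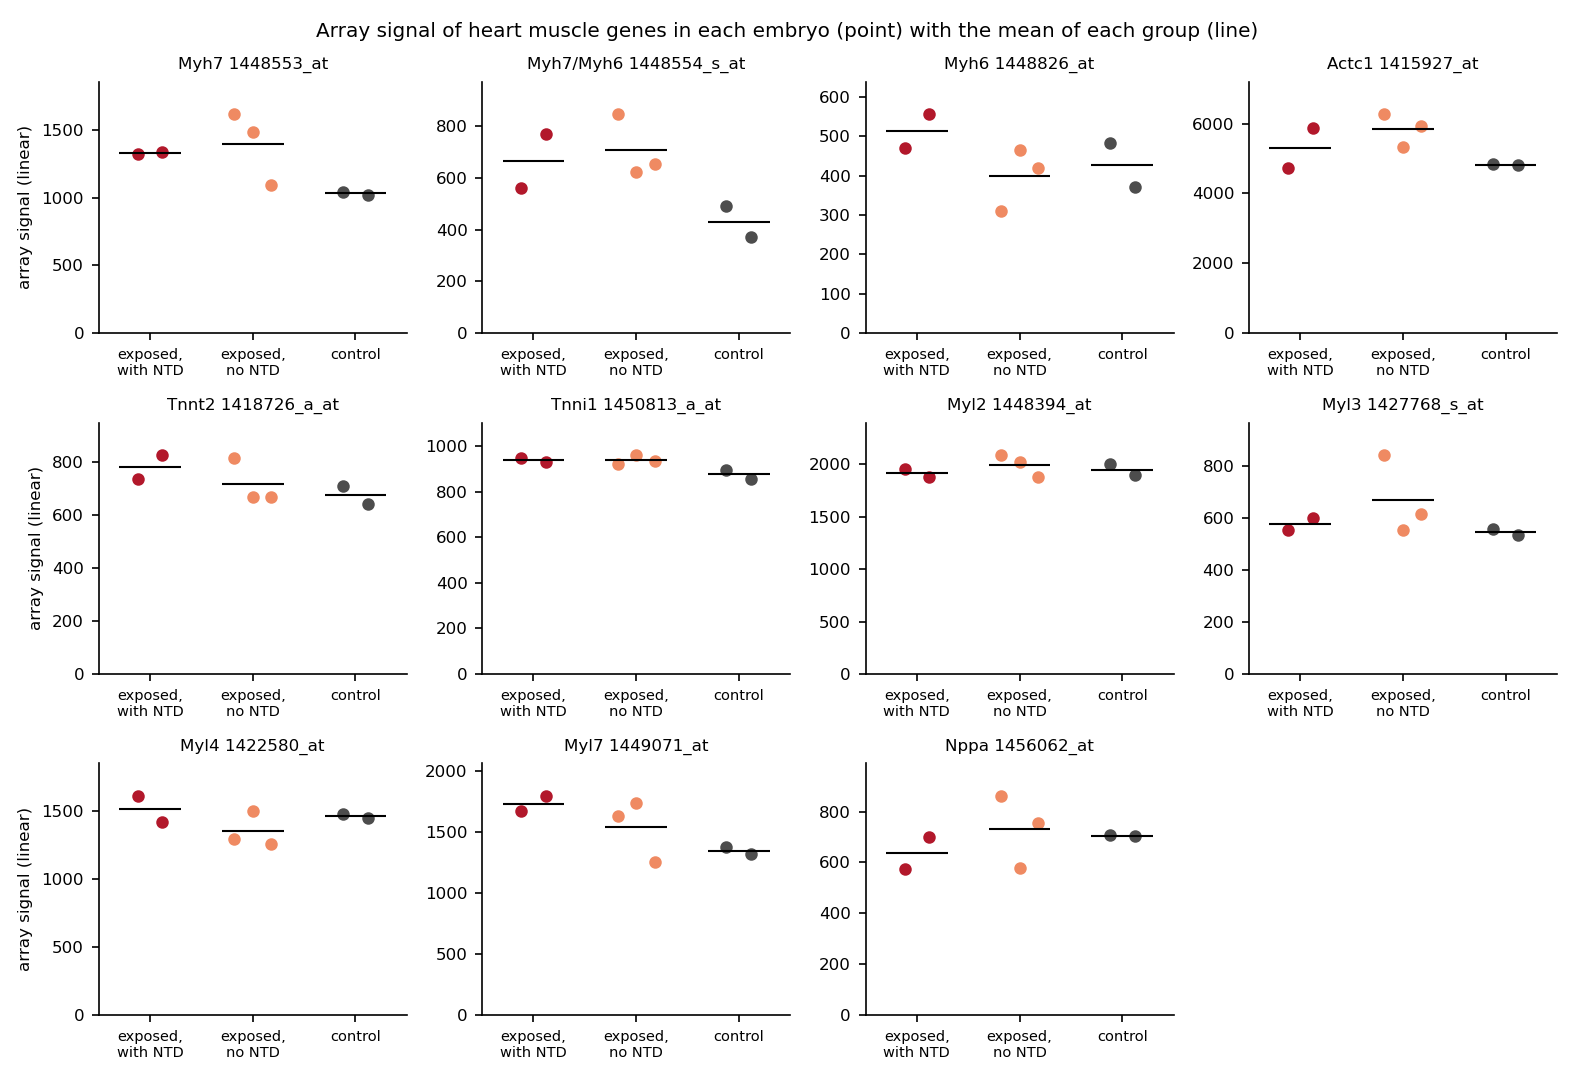
Array signal (linear scale from 0) of 11 heart muscle probe sets in each embryo, the brightest tested one of each gene and of the pair shared by Myh7 and Myh6, with exposed embryos with NTD, exposed embryos without NTD and controls from left to right. Points are embryos and lines are group means. The 5 exposed embryos lie above both controls for Myh7 (1448553_at), for the probe set shared by Myh7 and Myh6 and for Tnni1, whose signals span 921 to 960 in exposed and 854 to 897 in control embryos.

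Myh6 and Myh7 are neighbours on mouse chromosome 14. The 250 bases before an annotated start of each gene are printed to set the pair side by side, from RefSeq on build GRCm38.p6, both genes lying on the minus strand. Capitals mark every match, on either strand, to the core CATTCC of the MCAT element bound by TEAD factors and to the core AAGTG of the NKX2-5 element. RefSeq gives a second start for Myh7, whose window overlaps the printed one but holds no MCAT core. Distances for Myh7 are counted from the printed start, and a similar spacing in the pair depends on that choice.
Myh7 chr14:54994627-54994876: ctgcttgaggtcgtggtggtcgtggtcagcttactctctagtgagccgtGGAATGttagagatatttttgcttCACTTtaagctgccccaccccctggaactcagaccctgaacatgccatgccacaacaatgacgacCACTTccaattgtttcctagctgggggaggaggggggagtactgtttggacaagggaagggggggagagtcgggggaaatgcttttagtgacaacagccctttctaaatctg
Myh6 chr14:54966608-54966857: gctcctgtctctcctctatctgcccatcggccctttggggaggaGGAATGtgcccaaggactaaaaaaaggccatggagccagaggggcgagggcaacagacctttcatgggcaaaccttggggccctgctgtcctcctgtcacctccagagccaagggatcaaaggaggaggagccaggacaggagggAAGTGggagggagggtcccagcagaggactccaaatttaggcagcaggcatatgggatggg
The MCAT core stood 201 to 196 bases before the printed start of Myh7 and 206 to 201 bases before the start of Myh6. It lay on the reverse strand in both. It was found in 5 of the 10 heart muscle genes (Myh6, Myh7, Myl3, Myl7 and Tnnt2), against 14.4% of the 27025 gene symbols in the promoter table, while the NKX2-5 core was found in 7 of the 10 against 44.3%. These short matches describe the letters of the windows and are not evidence of binding.

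Of the thin filament genes, Actc1, the actin of heart muscle, gave 4731 and 5863 in exposed embryos with NTD and 6267, 5336 and 5932 in exposed embryos without NTD, against 4840 and 4801 in control embryos. All exposed embryos but the first with NTD were above both controls. Its log2 fold change was 0.22 ± 0.12 (SE; 95% interval -0.05 to 0.48, adjusted p = 0.400 in limma), or 1.17-fold in the means of 5626 ± 601 and 4820 ± 27.6 (SD, n = 5 and 2).

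Tnni1, the slow troponin I that the embryonic heart uses before Tnni3 replaces it, was the most even of the members. It gave 947 and 931 in exposed embryos with NTD and 921, 960 and 936 in exposed embryos without NTD, against 897 and 854 in control embryos. The groups did not overlap, yet the difference was small, 1.07-fold. The exposed embryos had an SD of 0.02 on the log2 scale, against a median SD of 0.21 over the 15 tested heart muscle probe sets and 0.22 over all tested. The exact permutation test gave p = 0.048 and limma, which moderates such small spreads, an adjusted p of 0.693 for a log2 fold change of 0.10 (95% interval -0.15 to 0.35). With the pair assigned to Myh7, this made 3 of 15 heart muscle probe sets in which all exposed embryos lay above both controls and 0 in which all lay below, against 11.4% and 13.4% of all tested probe sets.

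Tnnt2, the cardiac troponin T that anchors the troponin complex to tropomyosin, was measured by a pair of probe sets with overlapping groups. The brighter, 1418726_a_at, gave 737 and 827 in exposed embryos with NTD and 818, 668 and 669 in exposed embryos without NTD, against 710 and 641 in control embryos, a log2 fold change of 0.13 (95% interval -0.17 to 0.44). The other, 1424967_x_at, gave a log2 fold change of 0.20 (95% interval -0.18 to 0.58). The order of embryos differed between the pair, exposed embryo without NTD 1 being next to the highest on the brighter probe set and next to the lowest on the other.

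Actc1 is shown as 1 of the 3 heart muscle genes, with Myl3 and Myl7, whose window held a CArG box, the element bound by serum response factor. The windows are again from RefSeq on GRCm38.p6, with Actc1 and Myl7 on the minus strand and Myl3 on the plus strand. Capitals mark the CArG box in all 3 and, in Myl3 and Myl7, also each match to CATTCC or AAGTG on either strand.
Actc1 chr2:114052876-114053125: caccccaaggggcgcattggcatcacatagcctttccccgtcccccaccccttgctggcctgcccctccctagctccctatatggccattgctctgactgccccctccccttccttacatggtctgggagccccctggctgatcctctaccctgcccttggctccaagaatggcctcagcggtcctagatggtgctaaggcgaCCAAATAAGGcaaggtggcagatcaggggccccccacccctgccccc
Myl3 chr9:110763428-110763677: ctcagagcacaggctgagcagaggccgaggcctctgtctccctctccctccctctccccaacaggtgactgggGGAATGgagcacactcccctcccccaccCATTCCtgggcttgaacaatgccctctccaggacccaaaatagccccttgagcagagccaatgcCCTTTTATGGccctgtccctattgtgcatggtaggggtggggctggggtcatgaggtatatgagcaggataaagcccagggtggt
Myl7 chr11:5898783-5899032: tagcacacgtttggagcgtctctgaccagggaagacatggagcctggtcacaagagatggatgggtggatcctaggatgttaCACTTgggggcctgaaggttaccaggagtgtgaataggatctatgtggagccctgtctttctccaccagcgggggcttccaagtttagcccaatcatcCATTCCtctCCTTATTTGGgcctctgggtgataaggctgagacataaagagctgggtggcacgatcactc
The CArG box lay 47 to 38 bases before the start of Actc1, 85 to 76 before that of Myl3 and 61 to 52 before that of Myl7. It was present in 3 of 10 heart muscle genes and in 1.62% of the 27025 gene symbols. No window of the 10 genes held the MEF2 box, which 3.42% of gene symbols did. TATAAA was found for Myl2 and Nppa (14.3% of gene symbols) and the GATA-factor core AGATAA for Myl2 and Tnnt2 (11.4%).

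Among the light chains that mark the ventricle of the formed heart, Myl2, the regulatory light chain, showed the smallest difference of all members. It gave 1958 and 1882 in exposed embryos with NTD and 2084, 2021 and 1881 in exposed embryos without NTD, against 1999 and 1894 in control embryos. The controls sat inside the range of the exposed embryos. Its log2 fold change was 0.01 ± 0.11 (SE), with a 95% interval of -0.23 to 0.25, the narrowest of the light chains.

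Myl3, the essential light chain of the ventricle, was positive on all 3 of its probe sets, without passing the test on any. The probe set 1427769_x_at gave 406 and 495 in exposed embryos with NTD and 617, 617 and 435 in exposed embryos without NTD, against 430 and 370 in control embryos. It had the largest log2 fold change of the 3, 0.35 ± 0.19 (SE; 95% interval -0.08 to 0.77). On 1428266_at the signals were 505 and 542 in exposed embryos with NTD and 582, 549 and 655 in exposed embryos without NTD, against 517 and 458 in control embryos, a log2 fold change of 0.21 (95% interval -0.10 to 0.53). The third, 1427768_s_at, had a log2 fold change of 0.20 (95% interval -0.19 to 0.58) that rested largely on a signal of 841 in exposed embryo without NTD 1. The other 4 exposed embryos had 553, 600, 555 and 616, against 558 and 534 in control embryos, and without that embryo the log2 fold change was 0.09.

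The light chains that mark the atrium of the formed heart differed in sign. Myl7, the regulatory light chain of the atrium, gave 1670 and 1792 in exposed embryos with NTD and 1633, 1737 and 1253 in exposed embryos without NTD, against 1379 and 1316 in control embryos. Exposed embryo without NTD 3 lay below both controls and the other 4 above them. On the log2 scale the fold change was 0.25 ± 0.15 (SE; 95% interval -0.08 to 0.58, adjusted p = 0.429 in limma). Myl4, the essential light chain of the atrium, gave 1609 and 1420 in exposed embryos with NTD and 1298, 1500 and 1260 in exposed embryos without NTD, against 1476 and 1447 in control embryos. Its log2 fold change was -0.05 ± 0.13 (SE; 95% interval -0.34 to 0.24). The dim second probe set of Myl4 was not tested.

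Nppa, the gene of atrial natriuretic peptide, gave 573 and 699 in exposed embryos with NTD and 860.0, 578 and 756 in exposed embryos without NTD, against 708 and 702 in control embryos. The controls were nearly equal and lay in the middle of the exposed embryos. In limma the log2 fold change was -0.04 ± 0.17 (SE; 95% interval -0.42 to 0.34). Of the 14 members bright on all arrays, 1 had means that differed beyond 1.5-fold, the shared probe set 1448554_s_at, where 7.65% of all tested probe sets did.

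**Figure D3:**
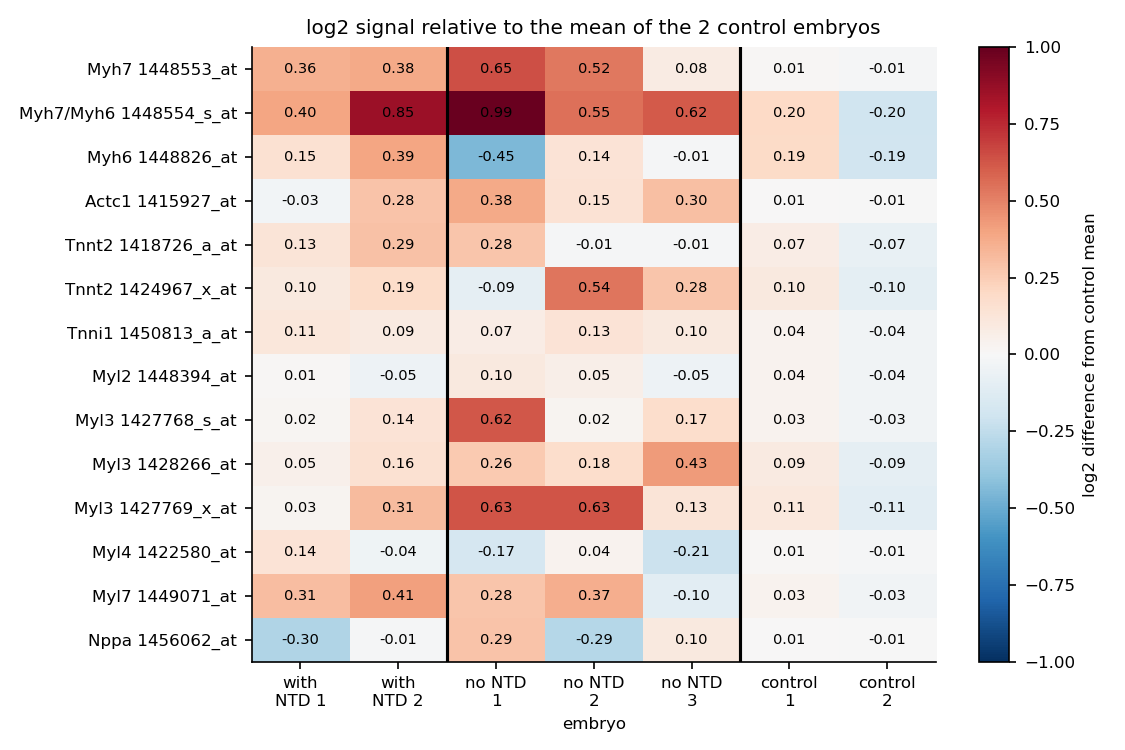
Each cell gives the log2 signal of 1 probe set (row) in 1 embryo (column) minus the mean log2 signal of the 2 controls, for 14 tested probe sets. The dim probe set 1448827_s_at is left out. Exposed embryo without NTD 1 combines the highest values of Myh7 (1448553_at) and Myl3 (1427768_s_at) with the lowest value of Myh6.

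The embryos of a group were not alike. Relative to the mean of the controls, the median log2 difference over the 15 tested probe sets was 0.10 and 0.19 in exposed embryos with NTD and 0.28, 0.14 and 0.10 in exposed embryos without NTD, against 0.04 and -0.04 in control embryos. Over all tested probe sets the same median stayed between -0.01 and 0.01 in every embryo. Exposed embryo without NTD 1 held the highest signal in 7 of the 15 and control 2 the lowest in 8. Without control 2, the median log2 fold change of the members was 0.10 and 10 of 15 were above 0.

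Exposed embryo without NTD 1 also stood apart in markers shared by yolk sac and liver. The summed signal of that marker list was 29064 in this embryo, and 2211 and 2270 in exposed embryos with NTD and 1379 and 2521 in the other exposed embryos without NTD, against 3544 and 3520 in control embryos. Its defining marker Afp, a serum protein of yolk sac endoderm and fetal liver, gave 9606 there and 285 to 1629 in the other 6 embryos, and Ttr, the thyroxine carrier made by the same tissues, 3568 and 152 to 488. Alb, the serum albumin of liver, did not stand out there, with 226 in this embryo and 128 to 243 in the other exposed embryos, against 315 and 426 in control embryos. Without this embryo the log2 fold change was 0.34 for Myh7 (1448553_at) and 0.60 for 1448554_s_at, the median over the members was 0.17, and 11 of 15 were above 0.

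To set the chamber-linked genes against each other, the mean log2 difference from control of Myh7, Myl2 and Myl3 was taken in each embryo, and from it that of Myh6, Myl4, Myl7 and Nppa was subtracted, with the brightest probe set of each gene. The result was 0.05 and -0.03 in exposed embryos with NTD and 0.47, 0.14 and 0.13 in exposed embryos without NTD, against -0.03 and 0.03 in control embryos. The 3 exposed embryos without NTD thus had the higher values, and the largest belonged to the embryo with high yolk sac markers. In that embryo Myl3 was at 0.62 on the probe set used, 0.26 on 1428266_at and 0.63 on 1427769_x_at. The light chains are assigned by the formed heart, and no chamber was measured separately in these whole embryos. Nppa was placed on the atrial side without evidence that it separates the chambers at E10.5, and the score depends on that choice. Its own log2 differences from the control mean were -0.30 and -0.01 in exposed embryos with NTD. In exposed embryos without NTD they were 0.29, -0.29 and 0.10. No test was made of this score.

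**Figure D4:**
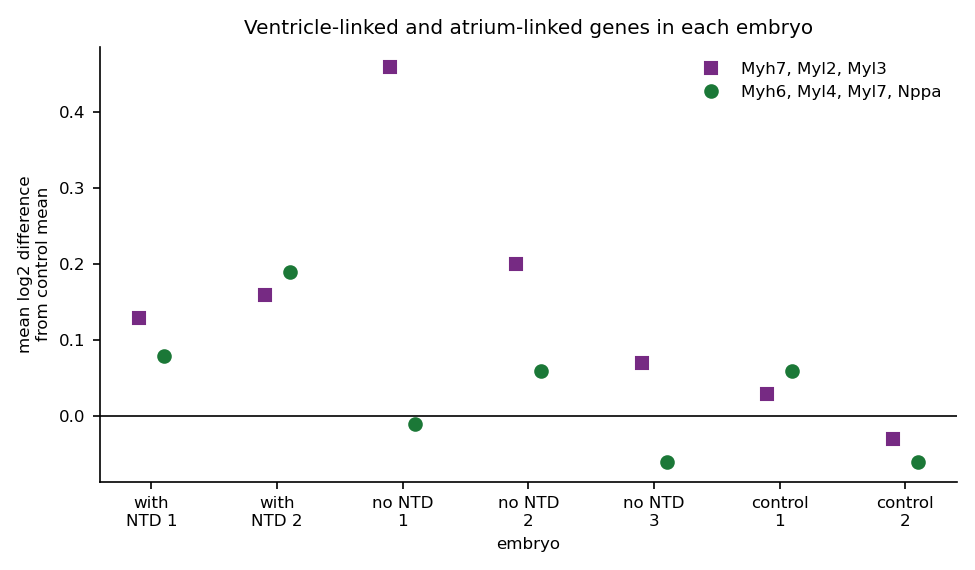
Mean log2 difference from the control mean in each embryo for ventricle-linked genes (squares, Myh7, Myl2 and Myl3) and atrium-linked genes with Nppa (circles, Myh6, Myl4, Myl7 and Nppa). The light chains are assigned by the formed heart, Nppa was placed with the atrium-linked genes by choice, and no chamber was measured separately. The gap between the symbols is 0.47 in exposed embryo without NTD 1 and -0.03 to 0.14 in the other 6 embryos.

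Exposed embryos with NTD were compared with exposed embryos without NTD in a fit of all 3 groups. None of the 15 heart muscle probe sets was called, and neither was any of all tested probe sets (0%). At an unadjusted p below 0.05 the count was 0 of 15, against 3.02% of all tested, and the lowest member p was 0.102 (adjusted p = 0.999, limma). That p belonged to Myh6 (1448826_at), whose 470 and 556 in embryos with NTD lay above the 310, 465 and 420 in embryos without NTD, a log2 difference of 0.38 with a 95% interval of -0.09 to 0.85. Myl3 (1428266_at) was the other tested probe set without overlap, lower with NTD, with 505 and 542 in embryos with NTD against 582, 549 and 655 in embryos without NTD and a log2 difference of -0.18 (95% interval -0.52 to 0.16). Complete separation was seen in 7.58% of all tested probe sets with the NTD group above and in 8.49% with it below. The log2 difference was above 0 for 5 members and below 0 for 10, with a median of -0.05 and a range of -0.29 to 0.84, the extreme of 0.84 coming from the dim 1448827_s_at. With 2 embryos against 3 the intervals were wide, and a p that misses the threshold does not show that the groups were alike.

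Both tests named in the study's methods were also run on these values, each by itself and without the study's filter on detection calls. The methods' t-test, unadjusted, put 2 of 15 heart muscle probe sets below 0.05, Myh7 (1448553_at) and Actc1, against 18.2% of all tested, and 0 of 15 after Benjamini-Hochberg adjustment. Cyber-T, unadjusted, put 6 of 15 below 0.05, against 25.2% of all tested, namely Myh7 and both shared probe sets, Actc1, Myl3 (1427769_x_at) and Myl7. The 6 include the dim 1448827_s_at, which entered only through the control embryos. Neither Myh7 (1448553_at), at 1.33-fold, nor Actc1, at 1.17-fold, passed a limit of 1.5-fold as well.

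Other genes of the sarcomere were spread on both sides of 0. Of 28 listed, which include Z-disc, titin-associated and further thin filament genes, 18 were tested and 0 called, with 10 log2 fold changes above 0, 8 below and a median of 0.01. The 2 with the smallest p were Des and Ankrd1. Des, the desmin filament that ties sarcomeres together, had 260.1 and 330 in exposed embryos with NTD and 348, 187 and 529 in exposed embryos without NTD, against 205 and 49.9 in control embryos, with a log2 fold change of 1.62 (adjusted p = 0.159, limma) beside a low value in control 2 and 0.28 on its other probe set. Ankrd1, a titin-binding ankyrin repeat protein, had 225 and 345 in exposed embryos with NTD and 180.0, 218 and 330 in exposed embryos without NTD, against 393 and 469 in control embryos, a log2 fold change of -0.77 (adjusted p = 0.183). Tpm1, tropomyosin of the thin filament, chosen after its values were seen, was the third with an unadjusted p below 0.05 in limma. Its log2 fold change was -0.31, beside -0.48 and -0.05 on its other probe sets. Genes of heart calcium handling, conduction and energy supply (9 of 19 tested) had 0 called and a median of 0.07, with Cox6a2, a muscle subunit of cytochrome oxidase, at 0.45 and Ckm, muscle creatine kinase, at 0.73 having the smallest p-values.

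Transcription factors of heart development included the lowest adjusted p among the heart lists. Of 17 listed, 11 were tested and 0 called, 8 were above 0, and the median log2 fold change was 0.21. Hand1, a basic helix-loop-helix factor of the left ventricle that is also made in limb, gut and extraembryonic mesoderm, gave 480.3 and 459 in exposed embryos with NTD and 543, 423 and 403 in exposed embryos without NTD, against 246 and 268 in control embryos. The groups were well apart, with a log2 fold change of 0.84 ± 0.15 (SE) and an adjusted p of 0.0619 in limma. Srf, which binds the CArG box, had a log2 fold change of -0.42 (adjusted p = 0.232), with 422 and 444 in exposed embryos with NTD and 499, 412 and 515 in exposed embryos without NTD, against 533 and 696 in control embryos, although its other probe set gave 0.36. Gata4, a zinc finger factor of heart and endoderm, chosen after its values were seen, had 0.49 (unadjusted p = 0.0378, adjusted p = 0.281). Genes of endocardium and epicardium (8 of 10 tested) had 0 called and a median of 0.10, with Upk3b, a marker of mesothelium, at 0.33 and Emcn, an endothelial sialomucin, at -0.23.

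Some of the heart muscle genes are also made in other muscle, so markers of skeletal and smooth muscle were examined. Skeletal muscle markers (9 of 16 tested) had 0 called, 7 of 9 below 0 and a median log2 fold change of -0.26, opposite in sign to the members. The regulatory light chain of fast skeletal muscle, Mylpf, had 304 and 271 in exposed embryos with NTD and 192, 249 and 281 in exposed embryos without NTD, against 424 and 473 in control embryos (log2 fold change -0.81, adjusted p = 0.0979, limma). The essential light chain Myl1 had a log2 fold change of -1.27 (adjusted p = 0.356). The summed signal of the skeletal list was 2536 and 2333 in exposed embryos with NTD and 1854, 2157 and 2502 in exposed embryos without NTD, against 2793 and 2847 in control embryos, while the defining markers Myod1, Myog and Acta1 were at -0.31, -0.26 and 0.03. Smooth muscle markers (6 of 9 tested) had 0 called and a median of 0.12, with Myl9 at -0.30 and Des as above. The smooth muscle heavy chain Myh11 was dim at 9.23 to 52 in all embryos. The part of these tissues in the members' values was not tested.

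Red cell genes were higher in exposed embryos at the unadjusted threshold. Of 10 listed markers of primitive red cells 7 were tested, and all 7 had a positive log2 fold change with an unadjusted p below 0.05 and a median of 0.60, where 7.63% of all tested probe sets were higher at that threshold, although 0 were called. Their summed signal was 67861 and 69034 in exposed embryos with NTD and 85105, 66991 and 68078 in exposed embryos without NTD, against 53330 and 55591 in control embryos. The embryonic globin Hbb-bh1 had a log2 fold change of 0.47 (adjusted p = 0.102, limma) and the erythroid factor Klf1 one of 0.61 (adjusted p = 0.0984). Yolk sac and liver markers (6 of 13 tested) had 0 called and a median of 0.01, Alb being at -0.94 (adjusted p = 0.133) and Amn at 0.51. The part of the red cell and yolk sac signal in the members' values was not tested.

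**Figure D5:**
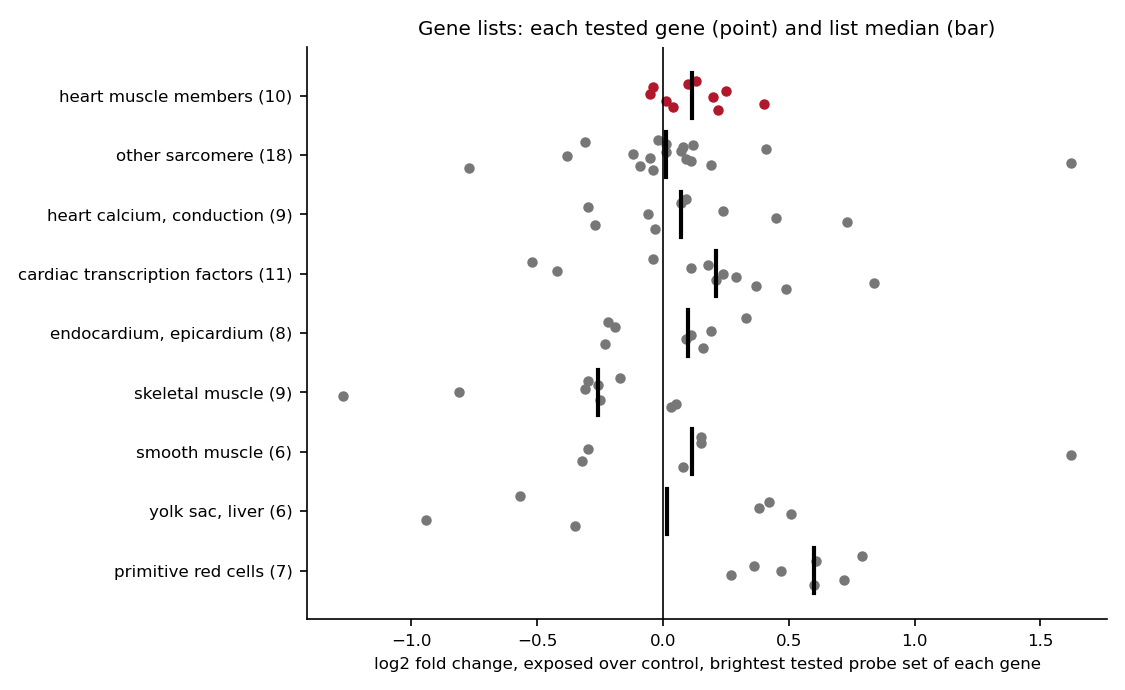
Each point is the log2 fold change, exposed over control, of 1 tested gene by its brightest tested probe set, and each black bar the median of its list, with the number of tested genes in brackets. The 10 heart muscle genes lie between -0.05 and 0.40 with a median of 0.12, the skeletal muscle markers have a median of -0.26 and the primitive red cell markers one of 0.60.

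The pattern of the 10 heart muscle genes over the 7 embryos was also set against that of genes outside all the lists used here, so that no muscle gene of those lists could appear. The mean profile was 0.09 and 0.19 in exposed embryos with NTD and 0.20, 0.11 and 0.04 in exposed embryos without NTD, against 0.04 and -0.04 in control embryos, as log2 difference from the control mean. Among these 8570 genes, the highest Pearson correlations across the 7 embryos were those of Pnrc1 (r = 0.985), Pmpca (0.967), Ppib (0.964), Slc39a1 (0.963), L3hypdh (0.956), Cpne3 (0.953), Bsg (0.952) and Flot2 (0.944). With 7 points that share their arrays, scaling and 2 litters, and so many genes compared, these values are a description.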

How the data were processed

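RNA of 7 whole embryos had been hybridized to 1-colour Affymetrix 430A 2.0 arrays. The authors deposited MAS5 signal intensity per probe set, summarized from matched and mismatched probes and scaled to a common trimmed mean (2% from each end here). The number of arrays limits the precision. Genes were named from GEO's platform annotation, with symbols updated through RefSeq (0 changed): 20393 probe sets had 1 symbol, 691 several and 1606 none, and 64 control probe sets were set aside. Detection calls and the study's second experiment were not used here. Signals below 1 were set to 1 and log2 transformed, and those that reached their array's 40th percentile on 2 or more arrays were fitted in limma 3.58.1 (R 4.3.3, empirical Bayes with trend, two-sided, Benjamini-Hochberg over 14554 probe sets). The design had 5 exposed against 2 control embryos, and 3 groups for NTD. The fit was tested on simulated data. Single probe sets had exact permutation tests (Python 3.11.15, NumPy 2.4.6). Alternatives were other scaling, floors, filters, weights, left-out embryos, a replicate block, the methods' t-test and Cyber-T. The members and lists were chosen with earlier results of these data known. All member probe sets are named, and from each other list genes called in a comparison, otherwise the 2 genes of smallest p, and the 8 genes most correlated with the mean profile. Deviations of same-numbered embryos from their group means correlated at -0.248 to 0.026, and the numbers were treated as names only. With 2 or 3 embryos per group these correlations cannot exclude a pairing or a shared batch. Promoter windows are the 250 bases before each RefSeq start on GRCm38.p6, for which all 10 genes matched.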

Additional observations from a re-analysis of the deposited data

Results flagged for a closer look

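In 3 of the 17 heart muscle probe sets, 1 exposed embryo lay far from the other 4 on the log2 scale by Dixon's criterion, which chance meets in about 1 of 20 groups. Exposed embryo without NTD 1 was the highest for Myl3 (1427768_s_at), with a signal of 841 and a gap of 0.741 of the group's range, and the lowest for the dim Myh6 probe set 1417729_at, with 4.43 and a gap of 0.77. Exposed embryo without NTD 3 was the lowest for Myl7 (1449071_at), with a signal of 1253 and a gap of 0.741. The first of these embryos is also the one with a summed yolk sac and liver marker signal of 29064.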

How the results depend on the processing

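The count of member probe sets called stayed at 0 under every alternative fitted in limma, and the lowest adjusted p of a member over these 18 settings was 0.0532, for 1448554_s_at with array quality weights. It was 2 with the methods' t-test, unadjusted, 0 with it after Benjamini-Hochberg adjustment, 6 with Cyber-T, unadjusted, and 2 with Cyber-T after Benjamini-Hochberg adjustment, the last of which was added after seeing the data. The median log2 fold change of the members was positive throughout, from 0.10 without control 2 to 0.23 without control 1 or without exposed embryo with NTD 1, and 0.12 for the brightest probe set of each gene, and between 10 and 13 members were above 0. Members that turned sign were near 0. Leaving out 1 embryo gave log2 fold changes of -0.15 (control 2) to 0.24 (control 1) for Myh6 (1448826_at), with -0.04 when exposed embryo with NTD 2 was left out, of -0.03 (control 2) to 0.05 (control 1) for Myl2, with -0.01 when exposed embryo without NTD 1 was left out, and of -0.12 (exposed embryo without NTD 1) to 0.02 for Nppa, this last value when with NTD 1 or without NTD 2 was left out. With only the exposed embryos that had no NTD, Myh6 (1448826_at) was at -0.11 and Nppa at 0.03. The count of all probe sets called, 25, was 50 with an offset of 50, 8 without the filter, 10 without the trend, 14 in the fit of 3 groups, 491 with array quality weights, 2651 with the methods' t-test, unadjusted, 0 with it after Benjamini-Hochberg adjustment, 3661 with Cyber-T, unadjusted, and 1304 with it after Benjamini-Hochberg adjustment. Leaving out 1 embryo gave between 0 (without control 2) and 58 (without exposed embryo with NTD 1) calls, and 1 without control 1. Between exposed embryos with and without NTD it gave 0 to 2 calls, the 2 without exposed embryo with NTD 1, and a median member difference of -0.10 to 0. With the replicate number as a block 0 probe sets were called and the member median was 0.17. Where 1 control was left, it was assumed to vary like the exposed embryos. The causes of these differences were not tested. Signals near or under the 40th percentile limit what the dim probe sets of Myh6, Myl4 and the pair Myh7 and Myh6 can show.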
